A study of Homo sapiens with 24 samples.

Results

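The cytotoxic granule genes GZMA, GZMB, GZMM, PRF1, GNLY, NKG7, SRGN, CTSW and FASLG were followed through a knockdown of PRKCQ in cutaneous T cell lymphoma lines. These 9 genes were found by their symbols among the 58780 genes of the deposited tables. All 9 had a row in the TPA table, and 5 had one in the DMSO table: GZMB, GZMM, PRF1, GNLY and SRGN. GZMA, NKG7, CTSW and FASLG were absent from the DMSO table, so nothing is reported for them with vehicle. That table holds 13025 genes. Of the 19417 genes tested with TPA, 33.0% were absent from it, against 4 of the 9 members (44.4%). RNA sequencing had been done on 24 libraries of MyLa, labelled as mycosis fungoides, and HuT 78, labelled as Sézary syndrome, with 3 libraries in each of 8 groups. The groups were shPRKCQ with TPA, the non-targeting control (NTC) with TPA, shPRKCQ with DMSO and NTC with DMSO, in each line. TPA, a phorbol ester and direct activator of protein kinase C, was given at 10 ng/ml for 24 h, and DMSO was its vehicle. The knockdown is induced by 1 µg/ml doxycycline for 72 h or more, and the labels do not say whether NTC cells received the drug, so effects of doxycycline and of the hairpin cannot be told apart.

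Cytotoxic lymphocytes kill through secretory granules and through death ligands. Perforin opens pores in the target membrane, granzymes are serine proteases that enter through them and cut proteins in the target, and serglycin is the proteoglycan that holds granzymes in the granule. Fas ligand works apart from perforin, by engaging the receptor Fas. PRKCQ encodes protein kinase C theta, which relays T cell receptor signals to the factors NFAT, AP-1 and NF-kappaB, and NFAT is a known activator of the FASLG gene.

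The promoters of these genes are shown for description only, and a link between their motifs and the fold changes was not tested. RefSeq sequences on GRCh38.p14 matched 6 of the 9 genes. GZMM, SRGN and CTSW are named only. The 250 bases before the start follow, 5′ to 3′ on the gene's strand, for the 3 promoters that hold the short NFAT motif GGAAA and for PRF1, the member with the smallest p-value. They lie at chr5:55102396-55102645 on the plus strand for GZMA, chr14:24634191-24634440 on the minus strand for GZMB, chr10:70602742-70602991 on the minus strand for PRF1 and chr1:172658853-172659102 on the plus strand for FASLG. Capitals mark GGAAA on either strand and the AP-1 motif TGANTCA.
GZMA: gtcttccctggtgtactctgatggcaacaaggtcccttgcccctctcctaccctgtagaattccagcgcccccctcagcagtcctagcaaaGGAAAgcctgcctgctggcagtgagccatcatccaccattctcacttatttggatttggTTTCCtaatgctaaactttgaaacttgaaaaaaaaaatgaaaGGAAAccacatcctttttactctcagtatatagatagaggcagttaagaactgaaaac
GZMB: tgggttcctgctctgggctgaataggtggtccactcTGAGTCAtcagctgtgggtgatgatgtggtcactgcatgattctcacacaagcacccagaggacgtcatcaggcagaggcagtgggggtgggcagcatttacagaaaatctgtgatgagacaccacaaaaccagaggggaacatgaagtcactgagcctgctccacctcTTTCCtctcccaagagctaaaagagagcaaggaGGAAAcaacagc
PRF1: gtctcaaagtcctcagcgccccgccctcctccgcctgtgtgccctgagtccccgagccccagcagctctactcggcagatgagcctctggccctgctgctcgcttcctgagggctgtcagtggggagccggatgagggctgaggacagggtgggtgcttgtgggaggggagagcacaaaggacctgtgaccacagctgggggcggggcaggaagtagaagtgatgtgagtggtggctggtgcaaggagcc
FASLG: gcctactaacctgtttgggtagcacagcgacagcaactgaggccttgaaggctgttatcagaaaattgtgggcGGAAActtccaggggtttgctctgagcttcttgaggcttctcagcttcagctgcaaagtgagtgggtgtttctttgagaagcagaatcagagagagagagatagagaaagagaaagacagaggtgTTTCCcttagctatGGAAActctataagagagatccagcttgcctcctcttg

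GZMA and FASLG each held 3 matches of GGAAA and GZMB held 2, while PRF1, GNLY and NKG7 held none. Such a match is common: 61.2% of the 35116 promoters of 300 bases (250 before and 50 after the start) held at least 1. TGANTCA, which 7.71% of all promoters held, was found in GZMB and in no other of the 6. The RUNX motif TGTGGT was found in GZMA, GZMB, PRF1 and GNLY, against 13.1% of all promoters. Its match in GZMA shared 1 base with a GGAAA match, and its match in PRF1 shared 2 bases with an E-box. The T-box motif GTGTGA was in GZMB, GNLY and NKG7 (12.0% of all promoters), the ETS motif GGAAG in 5 of the 6 (71.9%), the E-box CANNTG in 5 (68.7%) and the STAT5 motif TTCNNNGAA in 0 (7.66%). Both strands were searched. These are matches of letters, and the tables hold no measure of binding.

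**Figure D1:**
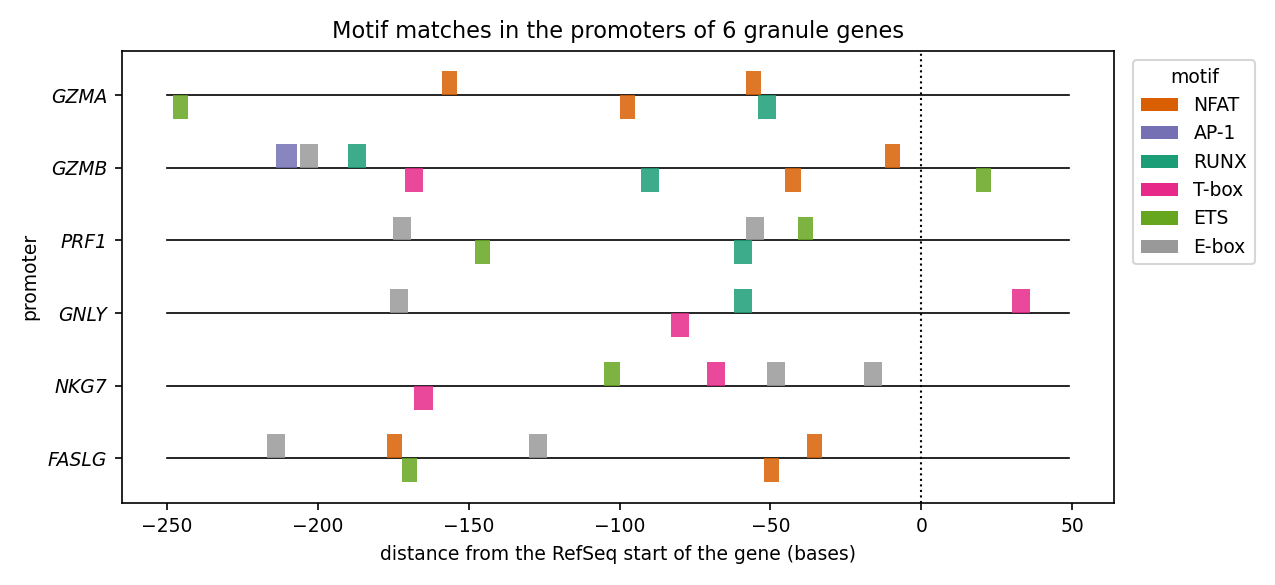
Motif matches in the promoters of 6 granule genes, by distance from the RefSeq start in bases, with matches on the gene's strand above each line and on the other strand below it (AP-1 and E-box matches, which read alike on both strands, above). GGAAA (NFAT) matches sit in GZMA, GZMB and FASLG, and the AP-1 match sits in GZMB.

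Values compare shPRKCQ with NTC libraries of both lines together, 6 against 6 for each treatment, and are the authors' own. Each side holds 3 libraries of MyLa and 3 of HuT 78. Whether the authors' model took account of line is not given. The difference between lines may therefore enter the p-values and what is computed from them. Values per library are not analysed here, so neither the level of a gene nor its spread over libraries or between MyLa and HuT 78 is given. The direction is not stated in the tables; since the silenced gene, PRKCQ, had negative values, positive ones were read as higher in shPRKCQ cells. The log2 fold changes of PRKCQ in the authors' deposited tables were -2.08 with TPA and -2.11 with DMSO, or 23.7% and 23.1% of the NTC level. All T cell markers looked for (CD3D, CD3E, CD3G, CD2, CD5, CD4, TRAC, TRBC1 and LCK), 9 in number, had an adjusted p with TPA, and 4 had one with DMSO. CD3E, CD2, CD5, CD4 and LCK were absent from the DMSO table. Of the 6 natural killer cell markers, 3 had an adjusted p with TPA and 1 with DMSO, as had 2 and 1 of 3 B cell markers, 1 and 0 of 3 myeloid markers and 3 and 1 of 3 epithelial or stromal markers, and none of these was called. Both CD8 markers, CD8A and CD8B, had an adjusted p with TPA, and CD8A had one with DMSO. At an unadjusted p under 0.05 there were CD5, at 0.56, and the keratin gene KRT5, at 0.77, with TPA in the authors' deposited table, and no marker with DMSO. Over all genes tested, 3.99% had such a p with TPA and 3.04% with DMSO. A row in a table is no measure of a level, and the part of such cells in the results was not tested. In bulk RNA, fewer cells that express a gene and less RNA per cell cannot be told apart.

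No granule gene passed an adjusted p under 0.05 in either treatment: 0 of 9 with TPA, where 0.113% of 19417 genes did, and 0 of 5 with DMSO, where 0.108% of 13007 did. The adjusted p was 0.999982 for each of the 9 with TPA and 0.999934 for each of the 5 with DMSO in the authors' deposited tables. At an unadjusted p under 0.05 there was 1 of 9 with TPA, against 3.99% of all genes, and 0 of 5 with DMSO, against 3.04%. With TPA 7 members were positive and 2 negative, where 53.0% of all genes tested were positive. Their median log2 fold change was 0.19, against 0.011 over all genes tested. The 9 T cell markers were much alike with TPA, 8 positive and 1 negative with a median of 0.19. The lean with TPA was therefore not particular to the granule genes. With DMSO 4 members were positive and 1 negative, where 52.3% of all genes were positive. Their median was 0.053, against 0.0075 over all genes. The 4 T cell markers tested with DMSO were 2 positive and 2 negative, with a median of 0.083. The intervals given below are approximate 95% intervals, computed from the deposited fold changes and p-values.

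**Figure D2:**
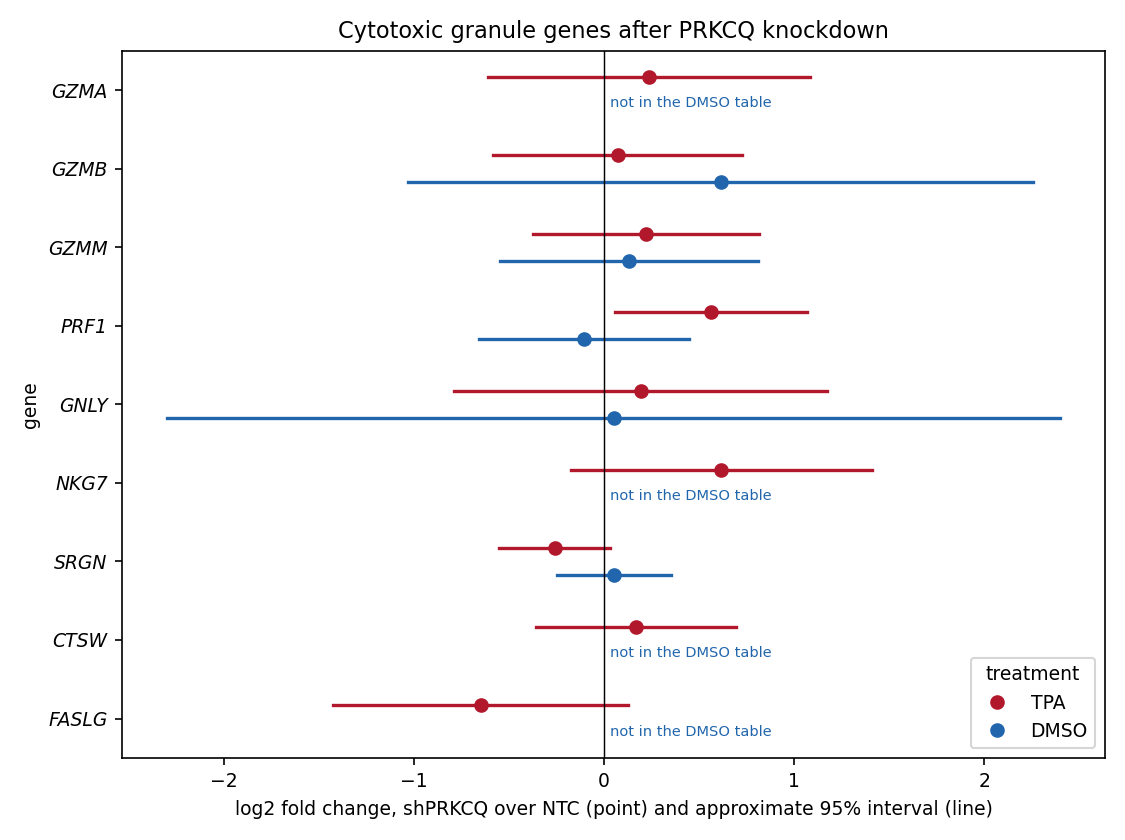
Log2 fold change of shPRKCQ over NTC for each granule gene (points) with its approximate 95% interval (lines), with TPA above DMSO. PRF1 with TPA has the only interval that leaves out 0, from 0.056 to 1.07, and 4 genes have no DMSO value.

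PRF1, which encodes perforin (ENSG00000180644.7, chromosome 10, 70597348 to 70602775, minus strand, GRCh38), had the smallest p-value of the members. In the authors' deposited table its log2 fold change with TPA was 0.56, with an unadjusted p = 0.0296, which is 1.48 times the NTC level with an interval of 1.04 to 2.10. By its p-value it stood at place 483 of the 19417 genes tested. With DMSO the authors' deposited table has PRF1 at -0.10 (p = 0.712), or 0.930 times the NTC level with an interval of 0.635 to 1.36. The difference of these effects, TPA minus DMSO, was 0.67 with an interval of -0.083 to 1.41 and did not pass (adjusted p = 0.999958 over 13007 genes). A higher level with TPA and not with DMSO is therefore not shown.

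The intervals of all 3 granzymes held 0 in each treatment in which they were listed. GZMA, a tryptase-like granzyme (ENSG00000145649.7, chromosome 5, 55102648 to 55110252, plus strand), was at 0.24 with TPA in the authors' deposited table, with an interval of -0.61 to 1.08. GZMB, which cleaves after aspartate and activates caspases (ENSG00000100453.12, chromosome 14, 24630954 to 24634267, minus strand), was at 0.071 with TPA (p = 0.832) and 0.61 with DMSO (p = 0.465) in the authors' deposited tables. Those intervals ran from 0.667 to 1.66 times the NTC level with TPA and from 0.490 to 4.78 times with DMSO. With vehicle, a GZMB level 4 times that of NTC cells therefore lay within the interval, as did no difference. GZMM, a granzyme that cleaves after methionine or leucine (ENSG00000197540.7, chromosome 19, 544034 to 549924, plus strand), was at 0.22 with TPA (p = 0.467) and 0.13 with DMSO (p = 0.707) in the authors' deposited tables. Its intervals, 0.771 to 1.76 and 0.684 to 1.75 times the NTC level, were alike in width.

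The other contents of the granule also fell short of the threshold. GNLY, which encodes granulysin, a pore-forming antimicrobial protein (ENSG00000115523.16, chromosome 2, 85685175 to 85698854, plus strand), was at 0.19 with TPA (p = 0.701) and 0.049 with DMSO (p = 0.967) in the authors' deposited tables. It was the least precise member, with intervals of 0.579 to 2.26 times the NTC level with TPA and 0.203 to 5.27 with DMSO. SRGN, which encodes serglycin (ENSG00000122862.4, chromosome 10, 69088106 to 69104811, plus strand), was the most precise. In the authors' deposited tables it was at -0.26 with TPA (p = 0.0798) and 0.053 with DMSO (p = 0.729). Its intervals ran from 0.682 to 1.02 times the NTC level with TPA and from 0.843 to 1.28 with DMSO, so that neither interval reached 1.5 times the NTC level. NKG7, a granule membrane protein needed for efficient degranulation in mice (ENSG00000105374.9, chromosome 19, 51371606 to 51372715, minus strand), was at 0.62 with TPA in the authors' deposited table (p = 0.126), with an interval of -0.17 to 1.41. CTSW, a cysteine protease of cytotoxic lymphocytes also called lymphopain (ENSG00000172543.7, chromosome 11, 65879809 to 65883741, plus strand), was at 0.17 with TPA in the authors' deposited table (p = 0.534), with an interval of -0.36 to 0.69.

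FASLG, the Fas ligand gene (ENSG00000117560.7, chromosome 1, 172659018 to 172666874, plus strand), had the lowest value of the members. It was at -0.65 with TPA in the authors' deposited table (p = 0.101), or 63.8% of the NTC level, with an interval of 0.372 to 1.09 times that level. FASLG and SRGN were the members with negative values under TPA, and PRF1 and NKG7 those above 0.5. Besides PRF1, the differences between TPA and DMSO were -0.31 for SRGN (interval -0.73 to 0.10), -0.54 for GZMB (-2.31 to 1.23), 0.091 for GZMM (-0.81 to 0.99) and 0.14 for GNLY (-2.40 to 2.69). By the difference test 0 of these 5 genes passed, and 0 had an unadjusted p under 0.05, against 0% and 0.438% of the 13007 genes in both tables. A share so far below the threshold of 0.05 marks the difference test as conservative. Falling short in it therefore does not show that effects were equal in TPA and DMSO.

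How large a difference would have been called depended on the gene. The standard error implied by fold change and p-value had a median of 0.33 over the 9 members with TPA, against 0.22 over all genes tested, and of 0.35 over the 5 members with DMSO, against 0.17. It was above the median of all genes for 8 of 9 members with TPA and 4 of 5 with DMSO, SRGN being the exception in both. At the smallest z-value that was called, SRGN would have needed a fold difference of 1.52 with TPA and 1.54 with DMSO. PRF1 would have needed 2.07 and 2.20, GZMB 2.56 and 10.5, and GNLY 4.09 and 28.9. NKG7, FASLG and GZMA would have needed 3.11, 3.04 and 3.37 with TPA. These folds are on the scale of each deposited table. The TPA values may be shrunken, which was not tested, so the needed folds may not compare between treatments. Of the 19417 genes tested with TPA, 33.0% were absent from the DMSO table, and their median implied standard error with TPA was 0.38, against 0.17 for those present.

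**Figure D3:**
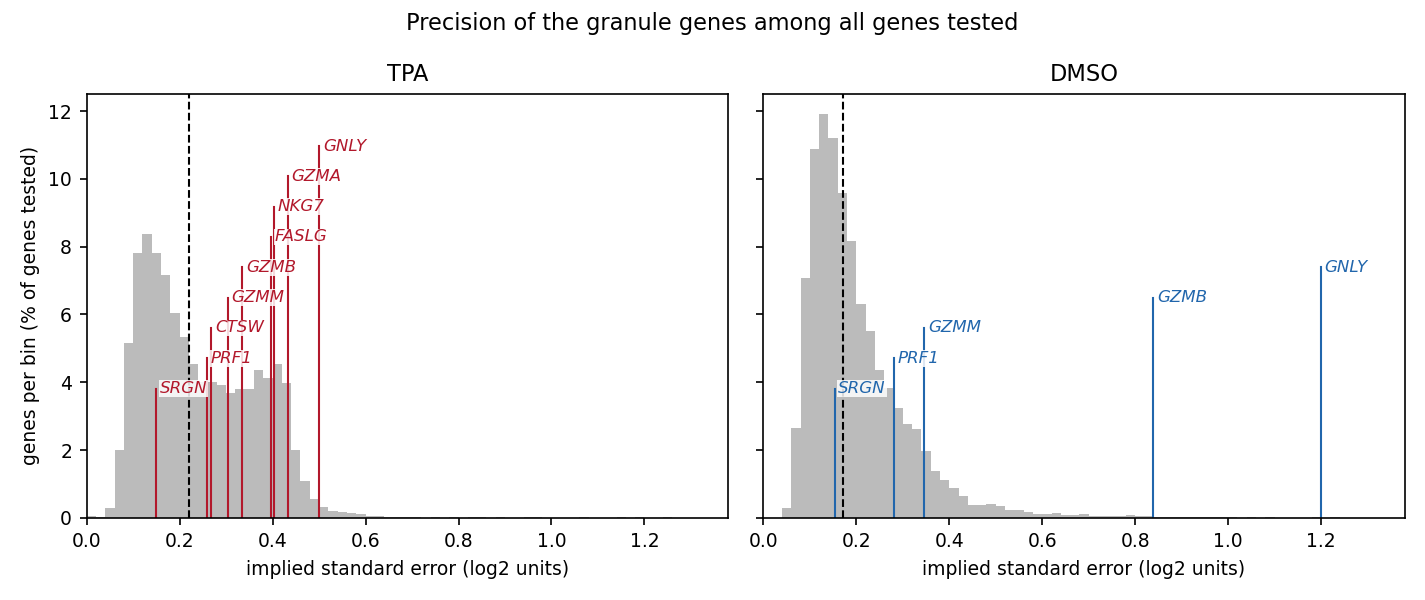
Distribution of the implied standard error in log2 units over all genes tested (grey bars, percent of genes per bin of 0.02; dashed line, median), with TPA on the left and DMSO on the right, and the granule genes as labelled lines. SRGN lies left of both medians, and GZMB and GNLY lie at 0.84 and 1.20 with DMSO.

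Positions bear on what was counted. GZMB lies whole, over 3314 bases, within AL136018.1, an antisense gene on the other strand, which was at 0.021 with TPA in the authors' deposited table and had no adjusted p. GNLY shares 995 bases with the pseudogene AC012454.1 on the other strand, CTSW shares 1 base with FIBP on the other strand, and SRGN holds the small RNA gene RF00017 over 299 bases of its own strand. The libraries kept strand, but whether counting used it is not stated, so reads of a gene and its antisense partner cannot be told apart. GZMH is a close paralog of GZMB, so reads could also be split between them. Of the 36 protein-coding genes next to the members, 2 on each side, 23 had an adjusted p with TPA and 17 with DMSO. Of these 0 passed in either, where 0.113% of all genes passed with TPA and 0.108% with DMSO. PALD1, 28.9 kb from PRF1 and singled out after its value was seen, was the one with an unadjusted p under 0.05. It was at 0.40 with TPA in the authors' deposited table (p = 0.0176). That is 1 of 23 with TPA, near the 3.99% of all genes with such a p. With DMSO it was 0 of 17, against 3.04%. GZMK, 68.1 kb from GZMA in the same granzyme cluster, was at 0.44 with TPA in the authors' deposited table (p = 0.186). GZMH, 21.3 kb from GZMB in the other cluster, was at -0.28 with TPA in the authors' deposited table (p = 0.486), with no adjusted p. Neither GZMK nor GZMH was in the DMSO table.

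The enzymes that activate granzymes and the inhibitors that restrain them gave no call. Over all genes tested, 0.113% passed with TPA and 0.108% with DMSO. With TPA 7 of 7 listed genes were tested, 4 positive and 3 negative, with a median of 0.12. With DMSO 4 of 7 were tested, all 4 negative, with a median of -0.14. CTSC, the dipeptidyl peptidase that activates progranzymes, was at -0.19 with TPA and -0.29 with DMSO in the authors' deposited tables (p = 0.286 and 0.116). SERPINB9, the intracellular inhibitor of granzyme B, was at -0.058 with TPA and -0.015 with DMSO in the authors' deposited tables. None of the 14 genes of granule exocytosis was called either. Of these 9 were positive and 5 negative with TPA (median 0.031), and 3 positive and 11 negative with DMSO (median -0.066). UNC13D, which primes granules for fusion, was at -0.011 with TPA and -0.18 with DMSO in the authors' deposited tables, and RAB27A, which docks them, was at -0.14 with TPA and -0.060 with DMSO. SNAP23, a fusion SNARE, was at 0.17 with TPA and 0.22 with DMSO in the authors' deposited tables (p = 0.0872 and 0.0309).

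Death receptor signalling genes likewise gave 0 calls among 10 tested in each treatment, with medians of 0.0060 with TPA and 0.082 with DMSO. Here too the share over all genes was 0.113% with TPA and 0.108% with DMSO. FAS, the receptor of Fas ligand, was at 0.025 with TPA and 0.095 with DMSO in the authors' deposited tables. BID, which carries the death signal of caspase-8 and granzyme B to mitochondria, was at -0.37 with TPA (p = 0.0370) and 0.086 with DMSO (p = 0.635) in the authors' deposited tables.

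Among regulators of the cytotoxic programme 1 of 10 tested genes fell with DMSO, where 0.108% of all 13007 genes passed. With TPA 0 of 14 passed, where 0.113% of all 19417 genes did. Since the list was chosen with earlier results of these data known, its share of calls was not tested. NFATC2 was the gene that fell, at -0.65 with DMSO in the authors' deposited table (adjusted p = 0.00422), or 63.8% of the NTC level, and it was at -0.33 with TPA (adjusted p = 0.938). EOMES, a T-box factor that drives PRF1 and granzyme genes, was at -0.76 with TPA in the authors' deposited table (p = 0.000455, adjusted p = 0.173) and -0.36 with DMSO (p = 0.122). STAT4, which transmits interleukin-12 signals, was at 0.42 with TPA (p = 0.0364) and -0.12 with DMSO (p = 0.575) in the authors' deposited tables. RUNX3, a factor of the CD8 lineage, was at 0.069 with TPA and 0.086 with DMSO in the authors' deposited tables. TBX21, which encodes T-bet, was at -0.30 with TPA in the authors' deposited table, with no p-value, and was absent from the DMSO table. The medians of the list were 0.043 with TPA and -0.12 with DMSO.

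Other genes of cytotoxic lymphocytes gave 0 calls among 14 tested with TPA and 6 tested with DMSO, with medians of 0.091 and 0.14. SLAMF7, an activating receptor of natural killer and CD8 T cells, was at 1.39 with TPA in the authors' deposited table, with an unadjusted p of 0.000152 and an adjusted p of 0.0846. With DMSO SLAMF7 was at 0.75 in the authors' deposited table (p = 0.125). IFNG, the interferon gamma gene, was at -1.59 with TPA in the authors' deposited table (p = 0.00259, adjusted p = 0.430) and absent from the DMSO table. KLRG1, an inhibitory receptor of differentiated cytotoxic cells, was at 0.13 with TPA (p = 0.504) and 0.44 with DMSO (p = 0.0295) in the authors' deposited tables. Over all lists of the pathway, then, NFATC2 with DMSO was the single call, where 0.108% of all genes passed with DMSO and 0.113% with TPA.

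**Figure D4:**
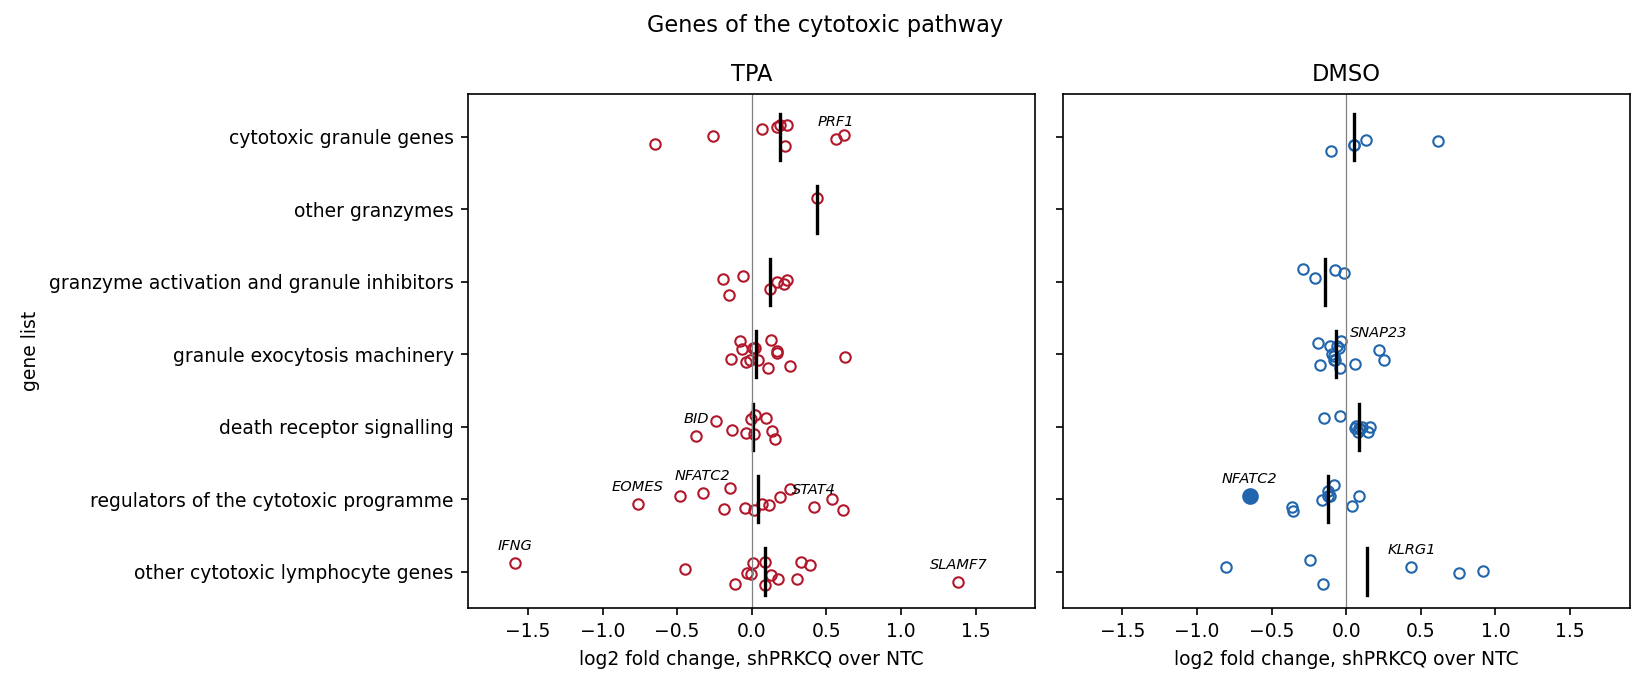
Log2 fold change of shPRKCQ over NTC for each tested gene of the cytotoxic lists, with TPA on the left and DMSO on the right; black bars are list medians, filled points passed an adjusted p under 0.05, and names mark an unadjusted p under 0.05. NFATC2 with DMSO, at -0.65, is the one filled point.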

How the data were processed

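Each deposited table gives per gene, per the file headers, an adjusted p-value, a p-value and a log2 fold change, made by the authors over both lines. DESeq2 1.18.1, RSEM 1.3.0, STAR 2.5.3a and the build GRCh38 are named, without their roles, in the submitters' processing notes; the model, and whether values were shrunken, is not given in the sources used here. Of the TPA fold changes 2910 share 1 value, which by itself does not show shrinkage. Over genes with an adjusted p, log2 fold changes ran from -2.42 to 1.74 with TPA and from -2.57 to 4.20 with DMSO. TPA values may be shrunken and not on the scale of DMSO, which was not tested.

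Members were matched by symbol. A z-value was taken from each deposited p-value, signed as its fold change, the implied standard error as fold change over z, and 95% intervals from it. Effects in TPA and DMSO were compared by their difference over the combined implied errors, with Benjamini-Hochberg adjustment over 13007 genes, taking the tables as independent. The steps were tested on simulated data with normal errors drawn independently for each treatment. That could not test whether the tables are independent or whether the deposited p-values are well scaled. All gene identifiers matched GENCODE 29. The labels call replicates independent. Depth is unknown, and the intervals rest on the deposited p-values. Those may be conservative, and the intervals too wide: the robust SD of z was 0.840 with TPA and 0.753 with DMSO, below that of a standard normal. Named genes were PRKCQ, all members, genes of the other lists with an unadjusted p under 0.05, and, whatever their values, GZMH, GZMK, TBX21, EOMES, RUNX3, NFATC2, CTSC, SERPINB9, UNC13D, RAB27A and FAS. Members and lists were chosen with earlier results of these data known. Proteins were not analysed here. Software was pandas 2.3.3, scipy 1.17.1, numpy 2.4.6 and Python 3.11.15.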

Additional observations from a re-analysis of the deposited data

How the results depend on the processing

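The count of granule genes called was 0 with TPA and 0 with DMSO under each alternative run: adjusted p under 0.1 or 0.01, adjustment over every gene with a p-value or over the genes in both tables, p-values rescaled by the robust SD of z, and a minimum absolute log2 fold change of 1. The lowest adjusted p among 38 alternative values for the members was 0.384, for PRF1 with TPA and rescaled p-values. The count of members that differ between TPA and DMSO was 0 on the difference of z-values, with rescaled p-values and at an adjusted p under 0.1; rescaled p-values gave 24 of all 13007 genes, the difference of z-values 0. In the 200 bases up to the start, the promoters with an AP-1 match were 0, those with an ETS match 3 and those with an E-box 4, and the counts of the other motifs were as before; fewer bases were searched. No paired analysis was possible because library values were not among the data used. Other count tests, normalizations, filters and left-out replicates were not run for the same reason. What depth limits could not be assessed.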

Other observations

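The implied standard errors of GZMB and GNLY were 2.51 and 2.39 times as large with DMSO as with TPA in the same genes, at 0.84 and 1.20 with DMSO. The median ratio over 13007 genes was 1.03, and the 95th percentile was 1.22. Whether the fold changes of both tables are on 1 scale is not known, and the ratios depend on that. For GZMM, PRF1 and SRGN the ratios were 1.14, 1.09 and 1.03.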
